A study of Mus musculus with 8 samples.

Results

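The CCN proteins, the thrombospondins and tenascin C are secreted proteins of the extracellular matrix that act on cells more than they build fibres. The group was taken as the 10 rows of the deposited table whose gene symbol is Ccn1, Ccn2, Ccn3, Ccn4, Ccn5, Thbs1, Thbs2, Thbs3, Thbs4 or Tnc, of 21649 genes in all, and each symbol had 1 row. They were followed in RNA sequencing libraries of cells sorted by fluorescence and labelled non-vascular smooth muscle cells, with 2 libraries from lung, 3 from intestine and 3 from bladder. All 3 groups came from mice with the alleles Cspg4-Dre, Acta2-CreERT and R26-GFP that were given intraperitoneal tamoxifen on 3 days (0.75 mg for each 10 g of weight). The labels give no age, and no group lacked a recombinase or tamoxifen. By their names, Dre is driven by Cspg4, a gene of pericytes, and CreERT by Acta2, a gene that smooth muscle shares with pericytes and myofibroblasts. The labels do not say whether each library was a different mouse. The p-values therefore reflect the spread among these libraries alone, and that spread may be technical.

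Matricellular proteins are made during development, after injury and under mechanical load, and they bind integrins, growth factors and other matrix proteins. CCN proteins share modules resembling IGF binding proteins, von Willebrand factor C and thrombospondin repeats, and most also carry a C-terminal cystine knot, which CCN5 lacks. In many cell types stretch and a stiff matrix raise Ccn1 and Ccn2 through the co-activators YAP and TAZ with TEAD factors, and through serum response factor. Thrombospondins 1 and 2 form trimers that restrain blood vessel growth, thrombospondins 3 and 4 form pentamers found in cartilage and tendon, and tenascin C is a large glycoprotein of developing and healing connective tissue.

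RefSeq promoters (build GRCm38.p6) were held for 5 of the 10 members, Ccn1, Thbs2, Thbs3, Thbs4 and Tnc. The 250 bases before the start site are shown for 4 of them, 5′ to 3′ on the strand of the gene. Ccn1 and Thbs4 are shown because the TEAD hexamer occurs there, and Thbs2 and Thbs3 because both genes followed the same order over the tissues. Capitals mark matches on either strand to GGAATG (TEAD) or GGGCGG (SP1).
Ccn1 (chr3:145649986-145650235, minus strand): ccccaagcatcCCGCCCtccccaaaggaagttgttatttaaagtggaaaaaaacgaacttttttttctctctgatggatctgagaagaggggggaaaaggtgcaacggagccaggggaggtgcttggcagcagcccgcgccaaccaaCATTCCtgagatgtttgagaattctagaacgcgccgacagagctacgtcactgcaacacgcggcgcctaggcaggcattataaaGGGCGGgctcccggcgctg
Thbs2 (chr17:14694263-14694512, minus strand): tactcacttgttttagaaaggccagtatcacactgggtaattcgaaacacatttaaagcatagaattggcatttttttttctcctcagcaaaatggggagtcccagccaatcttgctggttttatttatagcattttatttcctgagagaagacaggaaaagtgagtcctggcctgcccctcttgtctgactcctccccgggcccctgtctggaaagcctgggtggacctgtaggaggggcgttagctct
Thbs3 (chr3:89214930-89215179, plus strand): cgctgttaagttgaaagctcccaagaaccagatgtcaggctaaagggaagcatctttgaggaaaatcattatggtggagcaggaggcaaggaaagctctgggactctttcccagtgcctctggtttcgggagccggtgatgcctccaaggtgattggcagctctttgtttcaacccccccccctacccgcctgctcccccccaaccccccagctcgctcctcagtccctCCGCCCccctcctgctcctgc
Thbs4 (chr13:92794819-92795068, minus strand): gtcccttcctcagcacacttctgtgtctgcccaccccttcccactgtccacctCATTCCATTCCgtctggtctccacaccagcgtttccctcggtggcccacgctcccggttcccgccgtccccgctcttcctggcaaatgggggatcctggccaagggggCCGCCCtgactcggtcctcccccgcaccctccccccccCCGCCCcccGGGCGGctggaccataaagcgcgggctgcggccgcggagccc
Counted back from the start site, Ccn1 held the TEAD hexamer at -103 to -98 on the opposite strand. Thbs4 held it at -197 to -192 and at -192 to -187, also on the opposite strand, and these matches share a base. Of 32851 mouse promoter windows of this length, 12.64% held the TEAD hexamer, 32.74% the SP1 motif, 6.75% the AP-1 motif TGANTCA and 1.47% the CArG box of serum response factor. No CArG box and no AP-1 motif was found in the windows of these 5 members, and the Thbs2 window held none of the 4 motifs. Both start sites listed for Tnc had an SP1 match only. It is the same match, read in overlapping windows at -246 to -241 and at -167 to -162. These matches describe letters in a window and say nothing of binding.

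The libraries held 12.67 and 13.62 M reconstructed reads in lung, 12.03 to 13.19 M in intestine and 9.72 to 10.95 M in bladder. Values below are read counts that the authors scaled per library and rounded, called normalized values, and they compare 1 gene between libraries. The 12 contractile smooth muscle markers summed to 3756 to 3940 ppm of the values in lung, 3452 to 3716 ppm in intestine and 2112 to 2519 ppm in bladder, with none at 0 in any tissue. Fibroblast markers were also read everywhere, at 3907 to 4465 ppm in lung, 5097 to 5489 ppm in intestine and 7323 to 8072 ppm in bladder over 14 genes, so not all RNA is taken to be that of muscle cells. These sums are not per kb of exon, so they do not rank cell types against each other. They also take reads to follow RNA at every read density, which was not tested. Acta2 and Myh11 averaged 1.223 and 1.264 reconstructed reads per nt of exon. In bulk samples, fewer cells of a type and less RNA per cell cannot be told apart.

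All 10 members passed the filter on low values (10 or more in 2 or more libraries), and all 10 differed among the 3 tissues in limma's F test (Benjamini-Hochberg adjusted p under 0.05), as did 62.9% of the 18097 genes tested. Ccn3, Ccn4 and Ccn5 were highest in lung, together with Thbs1 and Tnc. Thbs2 and Thbs3 were highest in bladder, intermediate in intestine and lowest in lung. Thbs4 was highest in intestine. Ccn1 and Ccn2 spanned the least, and their differences from bladder changed with the scaling of the libraries.

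**Figure D1:**
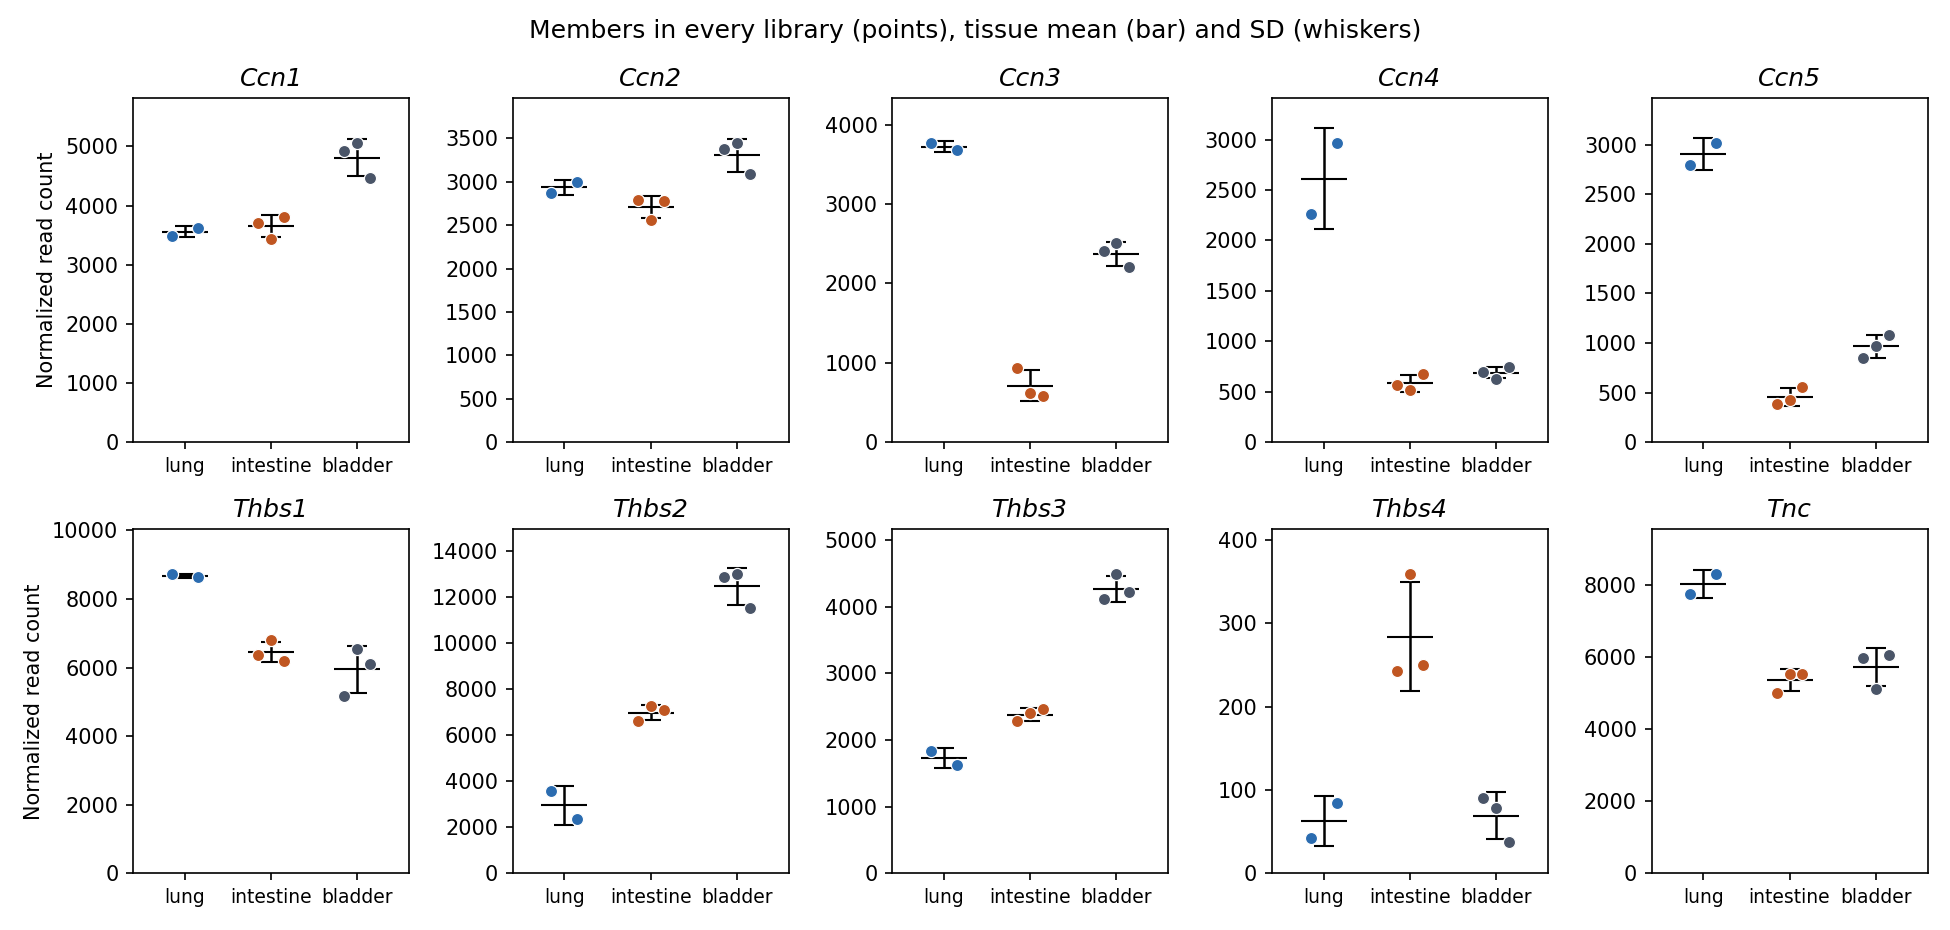
Normalized read count of each member (y axis, from 0, own scale per panel) in lung (2 libraries), intestine (3) and bladder (3). Points are libraries, bars the tissue mean and whiskers the SD. Lung stands above the other tissues for Ccn3, Ccn4, Ccn5, Thbs1 and Tnc, and below them for Thbs2 and Thbs3, whereas Thbs4 peaks in intestine at 243 to 359.

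Relative to bladder, 5 members were higher and 3 lower in lung, where 41.0% of all genes tested passed in either direction, 19.2% higher and 21.8% lower. In intestine, 1 member was higher and 6 lower than in bladder, where 51.9% of genes passed, 28.7% higher and 23.3% lower. Lung against intestine gave 5 higher and 3 lower members, where 39.5% of genes passed, 15.9% higher and 23.6% lower. The median log2 difference of the members was 0.18 in lung relative to bladder, -0.34 in intestine relative to bladder and 0.27 in lung relative to intestine, beside 0, 0.06 and -0.04 over all genes tested. Members that passed with at least a 2-fold difference numbered 4, 3 and 5 in these comparisons, beside 22.6%, 28.8% and 23.4% of all genes. The libraries of the compared tissues did not overlap for 9, 7 and 9 members, beside 58.1%, 63.4% and 58.6% of all genes, so the shares for the members are not far from the background in intestine against bladder. With the scaling undone the counts were 6 higher and 2 lower, 3 and 4, and 6 and 3. Of all 18097 genes tested, that setting gave 7958 higher and 1896 lower, 8330 and 1922, and 3679 and 3550. Without it these were 3466 and 3952, 5185 and 4210, and 2882 and 4275, so the whole table shifted with the scaling. With quantile normalization intestine against bladder gave 3 and 4, beside 4161 and 5816 of all genes.

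**Figure D2:**
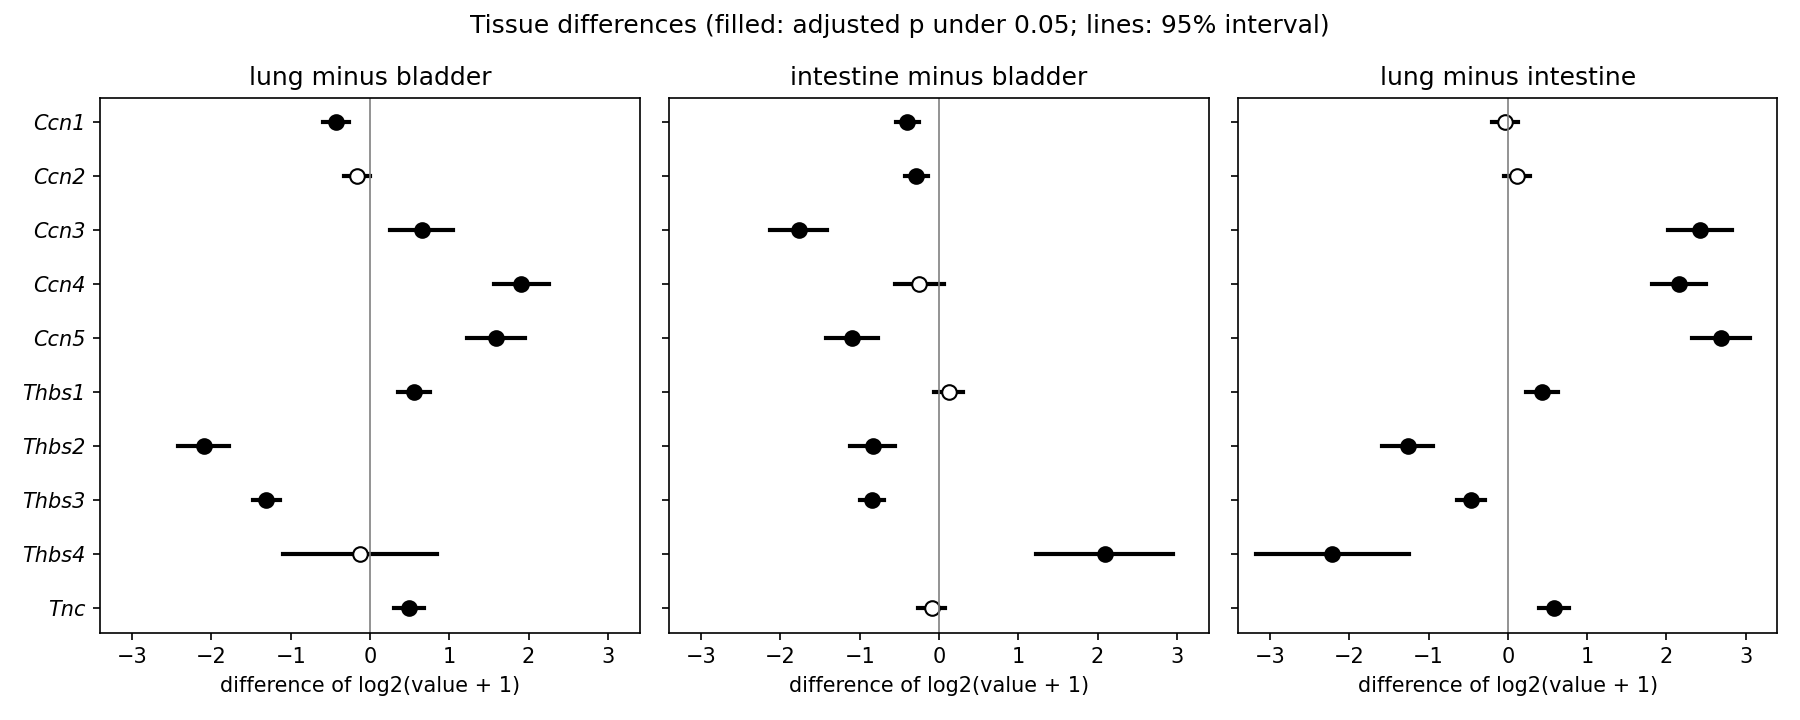
Difference of log2(value + 1) between tissues (x axis) for the 10 members in 3 comparisons, with limma's 95% interval as a line. Filled points passed at an adjusted p under 0.05, and open points did not. Ccn3, Ccn4 and Ccn5 lie to the right of 0 in both comparisons with lung on top, and Thbs2 and Thbs3 lie to the left in all 3 comparisons.

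Ccn5, also called Wisp2, encodes the CCN protein without the C-terminal knot and is known to restrain growth of vascular smooth muscle cells. Its normalized values were 2793 and 3017 in lung, 383, 422 and 557 in intestine, and 852, 967 and 1080 in bladder. The 3 tissues did not overlap. Lung was 3.02-fold above bladder (log2 difference 1.59, SE 0.16, limma adjusted p = 6.16e-05) and 6.46-fold above intestine (2.69, SE 0.16, adjusted p = 2.13e-06). Intestine was lower than bladder, with a log2 difference of -1.10 (SE 0.14, limma adjusted p = 0.000185). Ccn5 lies on chromosome 2 (163662781 to 163675066, build mm39, plus strand).

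Ccn3, also called Nov, is linked to growth arrest and often acts against CCN2. It stood at 3769 and 3676 in lung, 935, 622 and 576 in intestine, and 2402, 2508 and 2212 in bladder, again without overlap between tissues. Intestine was lower than bladder by 1.77 on the log2 scale (-1.77, SE 0.16, limma adjusted p = 1.66e-05), and lung was 5.35-fold above intestine (2.42, SE 0.18, adjusted p = 7.14e-06). The smaller excess of lung over bladder, 1.57-fold (0.65, SE 0.18), passed with an adjusted p of 0.0161 in limma. It did not pass without lung replicate 1 (adjusted p = 0.0675), without lung replicate 2 (0.0659), without bladder replicate 3 (0.052) or in limma without a variance trend (0.0546), and its adjusted p over all 21 alternatives ran from 0.000773 to 0.0675. Ccn3 lies on chromosome 15 (54609098 to 54617435, plus strand).

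Ccn4, also called Wisp1, is a WNT-inducible member of the family. Its values of 2260 and 2968 in lung stood apart from 562, 515 and 675 in intestine and 699, 628 and 743 in bladder. Intestine and bladder overlapped and did not pass the test (intestine minus bladder -0.25, SE 0.14, 95% interval -0.55 to 0.06, limma adjusted p = 0.162). Lung was 3.76-fold above bladder (1.91, SE 0.15, limma adjusted p = 1.48e-05) and 4.46-fold above intestine (2.16, SE 0.15, adjusted p = 5.68e-06). The lung libraries differed from each other more for Ccn4 than for Ccn3 or Ccn5, with an SD of 501 around a mean of 2614. Ccn4 lies on chromosome 15 as well (66763169 to 66795050, plus strand).

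Markers of other cells moved with these genes in the lung libraries. The 7 cardiomyocyte markers summed to 438 to 511 ppm in lung, 50 to 54.4 ppm in intestine and 38.1 to 51.2 ppm in bladder, and all 7 were higher in lung than in bladder, with Nppa at 0 in intestine. Fibroblast markers went the other way, with 14 of 14 below bladder and 8 of 14 below intestine in the lung libraries. Vascular mural markers, of pericytes and vessel muscle, summed over 10 genes to 2073 to 2344 ppm in lung, 2314 to 2444 ppm in intestine and 882 to 924 ppm in bladder, with none at 0. Of these 10, 7 were higher and 0 lower in lung against bladder (median log2 difference 3.29), 7 and 1 in intestine against bladder (3.24), and 1 and 1 in lung against intestine. Cspg4, which drives Dre, was at 4401 ± 503 in lung, 4402 ± 200.5 in intestine and 412 ± 23.3 in bladder. Mural markers thus separated both lung and intestine from bladder, in cells all labelled non-vascular. The part of these cells in the CCN, Thbs1 and Tnc values was not tested.

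Ccn2, also called Ctgf, is a target of TGF-beta and of YAP that is raised in fibrosis. It stood at 2877 and 2997 in lung, 2795, 2566 and 2781 in intestine, and 3380, 3449 and 3086 in bladder. The tissues did not overlap but lay close together. Intestine was lower than bladder (-0.28, SE 0.06, limma adjusted p = 0.00489). Lung did not pass against bladder (-0.17, SE 0.07, 95% interval -0.33 to -0.01, adjusted p = 0.0921) or against intestine (0.11, SE 0.07, interval -0.05 to 0.28, limma adjusted p = 0.24). The gene spans 24471340 to 24474581 on chromosome 10 (plus strand) and overlaps the minus-strand gene Gm15270, which had 51.0, 78.7 and 32.0 on average in lung, intestine and bladder, far below Ccn2.

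Ccn1, also called Cyr61, is an immediate early gene whose protein binds integrins. It stood at 3492 and 3620 in lung, 3712, 3442 and 3799 in intestine, and 4920, 5060 and 4459 in bladder. Lung and intestine overlapped, and both lay below bladder. Relative to bladder the log2 difference was -0.43 (SE 0.07, limma adjusted p = 0.0012) in lung and -0.40 (SE 0.06, adjusted p = 0.000683) in intestine. Lung against intestine gave -0.04 (SE 0.07, 95% interval -0.20 to 0.13, limma adjusted p = 0.718). Ccn1 lies on chromosome 3 (145352731 to 145355736, minus strand).

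Before the authors' scaling, Ccn1 had nearly the same number of reads in every library. Reconstructed reads were 4249 and 4183 in lung, 4036, 3963 and 3968 in intestine, and 3879, 4038 and 4067 in bladder. That is 1.92 to 2.10 reads per nt of its 2019 nt of exon, and Ccn1 was the only tested gene with a mean of at least 2 reads per nt. The deposited scaling alone shifts lung by -0.51 and intestine by -0.40 on the log2 scale relative to bladder. Ccn1, Ccn2, Thbs1 and Thbs2 belong to the 339 densest tested genes, those averaging 1 or more reads per nt, whose median difference from bladder was -0.42 in lung (SD 0.78) and -0.40 in intestine (SD 0.67). The 4 members stood at means of 2.00, 1.05, 1.17 and 1.09 reads per nt. These means are over all 8 libraries. In lung alone Ccn5 (1.766 and 1.812), Ccn3 (1.598 and 1.481) and Tnc (1.215 and 1.235) also exceeded 1 read per nt.

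With the deposited scaling undone, the Ccn1 difference from bladder was 0.08 in lung (limma adjusted p = 0.223) and -0.0017 in intestine (0.976). With quantile normalization it was -0.06 (adjusted p = 0.502) and -0.04 (0.584, limma). Over all alternatives the adjusted p ran from 0.000704 to 0.502 for lung and from 0.000258 to 0.976 for intestine, and with equal totals the lung value was -0.29. Ccn2 in lung became higher than in bladder with the scaling undone (0.34, limma adjusted p = 0.00121), and its difference in intestine turned to 0.11 (adjusted p = 0.095). Its adjusted p ran from 0.00121 to 0.812 in lung and from 0.00142 to 0.847 in intestine over all alternatives, and lung against intestine passed with the scaling undone (0.23, limma adjusted p = 0.0125, range 0.0125 to 0.499). No direction is therefore given for Ccn1 or Ccn2 beyond these values. Undoing the scaling also takes away the correction for depth, and it moved the median of all tested genes to 0.48 in lung and 0.45 in intestine. The same step moved called differences of other members without changing a call. In lung relative to bladder, Ccn3 stood at 1.16, Thbs1 at 1.07, Tnc at 1.00 and Thbs3 at -0.80. In intestine relative to bladder, Ccn5 stood at -0.70, Thbs2 at -0.44 and Thbs3 at -0.45. Quantile normalization gave 0.99 for Thbs1 and 0.87 for Tnc in lung, and -0.41 for Thbs2 and -0.52 for Thbs3 in intestine.

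**Figure D3:**
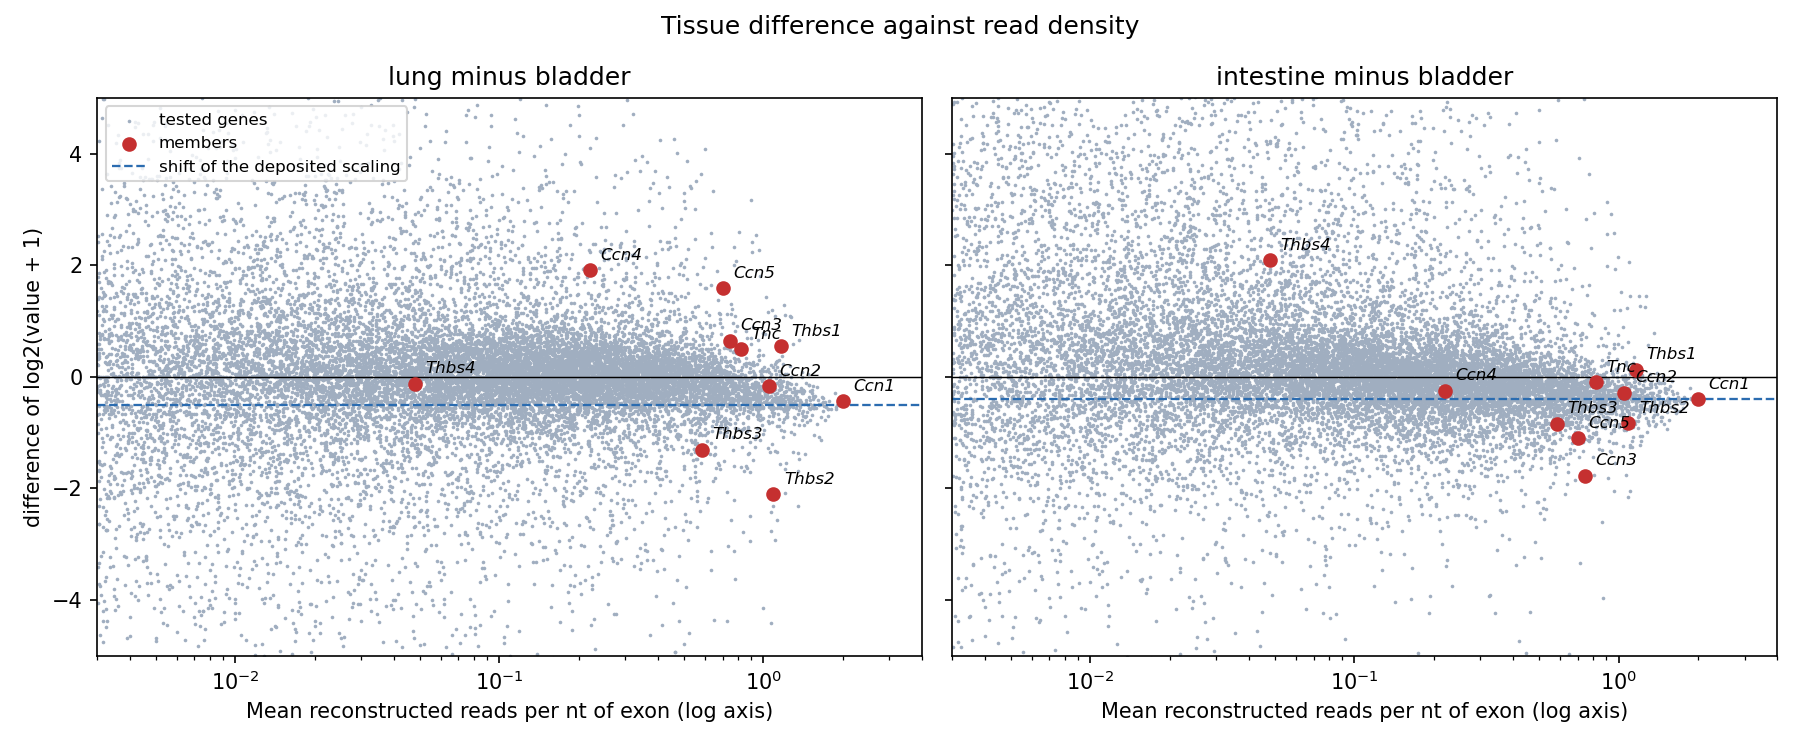
Difference of log2(value + 1) from bladder (y axis, -5 to 5, genes outside not drawn) against mean reconstructed reads per nt of exon (log x axis, from 0.003) for tested genes (grey) and the 10 members (red), with lung on the left and intestine on the right. The dashed line marks the shift of the deposited scaling, -0.51 and -0.40. Ccn1 is the right-most point and lies near that line in both panels.

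Other immediate early genes, and genes known to respond to tissue dissociation, were also mostly lower than in bladder. Of 31 such genes, 0 were higher and 25 lower in lung against bladder, 1 was higher and 17 lower in intestine than in bladder, and 0 were higher and 15 lower in lung than in intestine. With the scaling undone, which shifted all tested genes as given above, these counts were 4 and 8, 11 and 4 (turned), and 0 and 12. With quantile normalization the middle count was 4 and 7. Leaving out either lung library made it 2 and 19. The transcription factor gene Fos averaged 3448 in lung, 3920 in intestine and 5181 in bladder, and it too was dense, at 1.80 reads per nt. Nr4a2, a nuclear receptor gene, was at 364 ± 14.9 in lung, against 4004 ± 106 in intestine and 4523 ± 830 in bladder (SD, n = 2, 3 and 3). Its log2 difference was -3.62 (SE 0.13, limma adjusted p = 1.91e-07) for lung minus bladder. The part of dissociation in the Ccn1 and Ccn2 values was not tested.

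Thbs2 encodes thrombospondin 2, which shapes collagen fibrils and restrains vessel growth. Its values were 3567 and 2370 in lung, 6633, 7254 and 7081 in intestine, and 12890, 13004 and 11553 in bladder. No tissue overlapped another. Lung was lower than bladder by 2.10 on the log2 scale (-2.10, SE 0.14, limma adjusted p = 6.12e-06) and lower than intestine (-1.26, SE 0.14, adjusted p = 0.00011). Intestine was lower than bladder as well (-0.84, SE 0.13, limma adjusted p = 0.000453). Thbs2 lies on chromosome 17 (14885762 to 14914497, minus strand).

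Thbs3, a pentameric thrombospondin of the growing skeleton, followed the same order. It stood at 1834 and 1618 in lung, 2278, 2399 and 2462 in intestine, and 4107, 4487 and 4218 in bladder, without overlap. The log2 difference was -1.31 (SE 0.08, limma adjusted p = 2.48e-06) for lung minus bladder, -0.84 (SE 0.07, adjusted p = 9.05e-06) for intestine minus bladder and -0.47 (SE 0.08, adjusted p = 0.00114) for lung minus intestine. On chromosome 3 (89122487 to 89134144, plus strand) it overlaps the minus-strand gene Mtx1, which had 604 and 727 in lung, 635, 544 and 626 in intestine, and 537, 607 and 637 in bladder. Mtx1 passed in no comparison (limma adjusted p = 0.365, 0.903 and 0.424). The libraries do not mark the strand, so reads of overlapping genes cannot be told apart.

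The summed fibroblast markers given above had the same order over tissues as Thbs2 and Thbs3, lowest in lung and highest in bladder. In intestine against bladder 14 of 14 fibroblast markers were lower. Macrophage and leukocyte markers summed to 307 to 346 ppm in lung, 318 to 350 ppm in intestine and 703 to 1114 ppm in bladder over 10 genes. Summed urothelial and mesothelial markers were also highest on average in bladder, and Upk3b is in both lists. The mesothelial ranges of intestine and bladder overlapped. The 7 urothelial markers summed to 21.0 to 46.7 ppm in lung, 35.5 to 41.6 ppm in intestine and 611 to 822 ppm in bladder, with Upk2 at 0 in lung and Krt5 at 0 in lung and intestine, and 7 of 7 were lower than in bladder in both tissues. The 6 mesothelial markers summed to 43.5 to 91.7 ppm in lung, 226 to 260 ppm in intestine and 240 to 386 ppm in bladder, with 5 lower in lung and 4 lower in intestine than in bladder. The part of any of these cells in the Thbs2 and Thbs3 values was not tested.

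Thbs1 encodes thrombospondin 1, which can activate latent TGF-beta and binds CD36 and CD47. It stood at 8721 and 8638 in lung, 6373, 6788 and 6201 in intestine, and 5184, 6546 and 6098 in bladder. Intestine and bladder overlapped, and lung lay above both. Lung was 1.47-fold above bladder (0.55, SE 0.09, limma adjusted p = 0.00107) and 1.35-fold above intestine (0.43, SE 0.09, adjusted p = 0.00462). Intestine against bladder gave 0.12 (SE 0.08, 95% interval -0.06 to 0.31, limma adjusted p = 0.226). This last difference passed with equal totals (0.22, limma adjusted p = 0.0465), with quantile normalization (0.52, 0.000638) and with the scaling undone (0.52, 0.00368). Its adjusted p over all alternatives ran from 0.000638 to 0.811. Thbs1 lies on chromosome 2 (117942357 to 117957614, plus strand).

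Platelets store thrombospondin 1, and the 8 platelet and megakaryocyte markers summed to 32.6 to 47.3 ppm in lung, 8.20 to 10.4 ppm in intestine and 28.0 to 38.8 ppm in bladder. Gp6 and Treml1 were at 0 in intestine and bladder, and Ppbp at 0 in intestine. Of the 5 platelet markers tested, 4 were higher and 1 lower in lung against bladder, and 1 and 1 in intestine against bladder. Lung against intestine gave 4 and 0. Endothelial markers, another source of thrombospondin 1, summed over 10 genes to 770 to 847 ppm in lung, 1345 to 1560 ppm in intestine and 456 to 607 ppm in bladder. Whether such cells supplied part of the Thbs1 RNA was not tested.

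Thbs4, a thrombospondin of tendon, muscle and nervous tissue, was the member with the lowest value per kb of exon in every tissue. It stood at 42 and 84 in lung, 243, 359 and 250 in intestine, and 91, 79 and 38 in bladder. Intestine lay above both other tissues, which overlapped. Intestine was 4.25-fold above bladder (2.09, SE 0.38, limma adjusted p = 0.00144), and lung was lower than intestine (-2.21, SE 0.43, adjusted p = 0.00295). Lung minus bladder was -0.13 (SE 0.43, 95% interval -1.09 to 0.84, limma adjusted p = 0.854). Thbs4 lies on chromosome 13 (92888098 to 92931326, minus strand).

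Summed markers of several other cell types were also highest in the intestine libraries. Enteric neuron and glia markers summed over 10 genes to 55.1 to 74.4 ppm in lung, 245 to 283 ppm in intestine and 42.8 to 49.7 ppm in bladder, with Sox10 at 0 in lung and Snap25 at 0 in bladder. Epithelial markers summed over 8 genes to 66.6 to 110 ppm in lung, 1342 to 1434 ppm in intestine and 337 to 540 ppm in bladder. Both sums were highest in the tissue with the most Thbs4. Chondrocyte markers, of which 6 of 8 were in the table, summed to 50.8 to 85.7 ppm in lung, 287 to 315 ppm in intestine and 41.6 to 51.5 ppm in bladder. The 6 tenocyte markers summed to 223 to 320 ppm in lung, 325 to 352 ppm in intestine and 212 to 259 ppm in bladder, with Kera at 0 in lung. Of 5 tested chondrocyte markers, 2 were higher and 1 lower in intestine against bladder. For lung the counts were 1 and 1 against bladder and 0 and 2 against intestine. Of 5 tested tenocyte markers, 4 were higher and 1 lower in intestine against bladder. For lung these were 1 and 4 against bladder and 1 and 3 against intestine. The part of any of these cells in the Thbs4 value was not tested.

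Tnc encodes tenascin C, whose receptors include the integrin alpha 9 chain. It stood at 7763 and 8308 in lung, 5009, 5546 and 5538 in intestine, and 5981, 5132 and 6075 in bladder. Lung lay above both other tissues, which overlapped. Lung was 1.41-fold above bladder (0.49, SE 0.08, limma adjusted p = 0.00137) and 1.5-fold above intestine (0.58, SE 0.08, adjusted p = 0.000504). Intestine minus bladder was -0.09 (SE 0.07, 95% interval -0.26 to 0.08, limma adjusted p = 0.33). It turned to 0.26 with quantile normalization (limma adjusted p = 0.0232) and to 0.30 with the scaling undone (0.0306), and its adjusted p over all alternatives ran from 0.0232 to 0.992. Tnc lies on chromosome 4 (63878022 to 63965252, minus strand), where it overlaps the plus-strand gene 8030451A03Rik, at 1 to 23 in every library.

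Levels of different genes were set side by side per kb of exon. Among CCN genes Ccn1 led in every tissue, but its share of the summed CCN value per kb was 28.8 to 29.3% in lung, 53.4 to 54.5% in intestine and 46.5 to 48.5% in bladder. Ccn5 held 24.6 to 25.2% in lung, 5.8 to 8.4% in intestine and 8.8 to 11.8% in bladder. The CCN sum itself was 5907 to 6223 in lung, 3130 to 3465 in intestine and 4753 to 5201 in bladder, in normalized value per kb. The ranges of the 3 tissues did not overlap for any of these quantities, and no test was made of them. These shares take reads to follow RNA at every read density, which was not tested. Ccn1 stood at 1.921 to 2.105 reads per nt in every library, and Ccn5 at 1.766 and 1.812 in lung.

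Among thrombospondins Thbs1 led in lung, Thbs1 and Thbs2 stood close together in intestine, and Thbs2 led in bladder. Thbs1 held 61.4 to 67.0% of the summed thrombospondin value per kb in lung, 39.0 to 41.3% in intestine and 23.9 to 28.4% in bladder. Thbs2 held 15.9 to 21.8% in lung, 37.2 to 38.6% in intestine and 46.6 to 51.5% in bladder. Per kb, the Thbs1 to Thbs2 ratio was 2.82 and 4.20 in lung, 1.11, 1.08 and 1.01 in intestine, and 0.464, 0.580 and 0.609 in bladder. Thbs4 held at most 1.2% in lung, 4.0% in intestine and 0.8% in bladder. A ratio within 1 library does not change with the library scaling. These shares and ratios also take reads to follow RNA at every read density, which was not tested. Thbs1 stood at 1.644 and 1.747 reads per nt in lung, and Thbs2 at 1.451 to 1.505 in bladder.

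**Figure D4:**
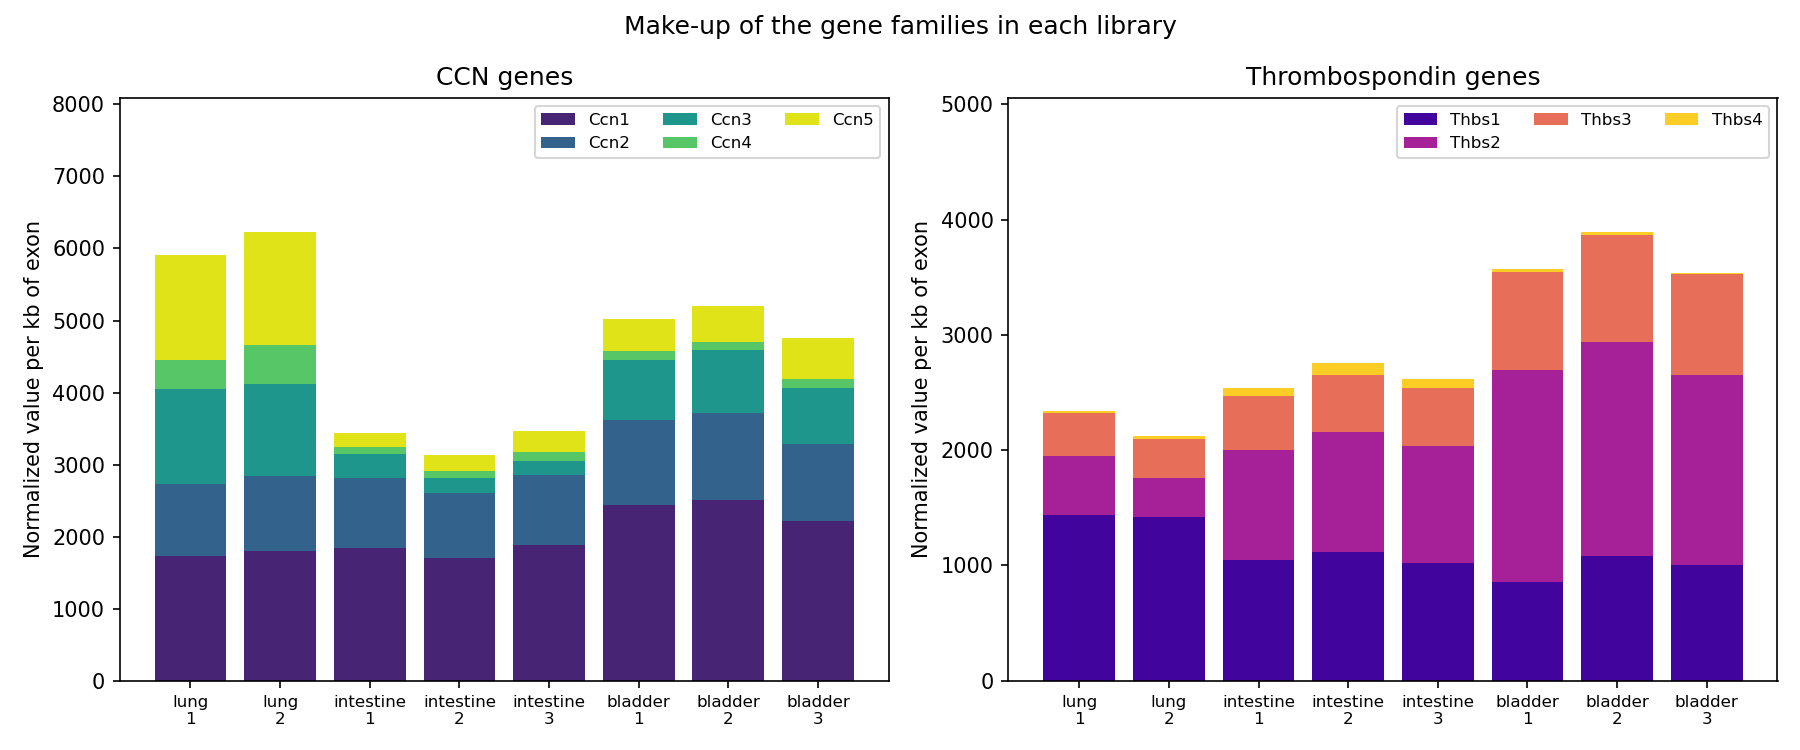
Normalized value per kb of exon (y axis, from 0) of the 5 CCN genes (left) and the 4 thrombospondin genes (right), stacked for each of the 8 libraries. Ccn3, Ccn4 and Ccn5 widen the lung bars, and Thbs1 gives way to Thbs2 and Thbs3 from lung through intestine to bladder.

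Genes whose products work with these proteins were described from lists, leaving out the members themselves. Counts over all genes tested also moved with the scaling, as given above for the scaling undone. With quantile normalization they were 3343 higher and 3299 lower in lung against bladder and 4161 and 5816 in intestine against bladder. Lung against intestine gave 5172 and 3516. With equal totals these 3 pairs were 4562 and 3234, 5793 and 3580, and 3428 and 4040. Of 30 receptors for CCN proteins, thrombospondins or tenascin C, 10 were higher and 12 lower relative to bladder in lung (11 and 9 with quantile normalization, 15 and 6 with the scaling undone), 13 higher and 11 lower in intestine than in bladder, and 3 higher and 8 lower in lung than in intestine. The last pairs of counts were 16 and 6, and 4 and 6, with the scaling undone. Lung against intestine gave 5 and 9 with quantile normalization and 5 and 5 without lung replicate 2, so its imbalance rests on that library. The integrin alpha 8 gene Itga8, a tenascin receptor chain, was at 6159 ± 2728 in lung, 3520 ± 458 in intestine and 305 ± 34.3 in bladder. Its log2 difference was 4.26 (SE 0.24, limma adjusted p = 1.79e-06) for lung minus bladder and 3.52 (SE 0.21, adjusted p = 1.6e-06) for intestine minus bladder. Itga9 was at 4477 ± 1020 in lung and 1684 ± 202 in intestine (1.40, SE 0.14, limma adjusted p = 4.69e-05), and its bladder value is not reported here. The fibronectin receptor chain Itga5 was at 6176 ± 510 in lung and 2246 ± 19.3 in intestine (1.46, SE 0.07, limma adjusted p = 7.92e-07).

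Other targets of YAP and TEAD did not move as a block. Of 20 genes of a YAP and TEAD target signature besides Ccn1 and Ccn2, 8 were higher and 5 lower in lung against bladder, 8 and 7 in intestine against bladder, and 8 and 4 in lung against intestine. With the scaling undone the first pair was 11 and 1 and the middle pair 10 and 5. Equal totals gave 10 and 3, and quantile normalization 8 and 2, for the first pair. The middle balance turned, to 4 higher and 8 lower, with scaling from genes of low read density. It also turned in limma without a variance trend (5 and 7) and without any 1 of the intestine libraries (6 and 7, 5 and 7, and 4 and 7) or bladder libraries (5 and 7, 7 and 8, and 5 and 7), so no balance is read from it. Without bladder replicate 2 the first pair was 8 and 3, and without lung replicate 1 or intestine replicate 3 the last was 8 and 2. Their median log2 differences were 0.18, 0.16 and 0.27. Ankrd1, an ankyrin repeat protein of stretched muscle, was at 720 ± 163 in lung, 42.7 ± 5.51 in intestine and 24.3 ± 9.07 in bladder (lung minus bladder 4.87, SE 0.36, limma adjusted p = 9.22e-06). Cardiomyocyte markers were also highest in lung, at 438 to 511 ppm, and their part in the Ankrd1 value was not tested. Of 19 YAP and TEAD regulators, 6 were higher and 2 lower in lung against bladder, 5 and 4 in intestine against bladder, and 6 and 2 in lung against intestine. Undoing the scaling made the first pair 13 and 0 and the middle pair 8 and 1. Equal totals made them 9 and 1 (first) and 5 and 2 (middle). Quantile normalization made them 6 and 1 (first) and 3 and 5 (middle), and scaling from genes of low read density made the middle pair 3 and 4. The last was 6 and 1 with quantile normalization. Leaving out a library also moved these small counts. The first pair was 8 and 5 without lung replicate 1, 6 and 0 without lung replicate 2, 6 and 1 without intestine replicate 2 or bladder replicate 1, and 5 and 1 without bladder replicate 2. The middle pair turned to 2 and 3 without intestine replicate 2, and was 4 and 2 without intestine replicate 1 and 3 and 2 without intestine replicate 3 or bladder replicate 2. The last was 6 and 4 without lung replicate 1, 5 and 1 without lung replicate 2 and 4 and 1 without intestine replicate 2. The TEAD cofactor gene Vgll3 was at 1867 ± 8.49 in lung, 540 ± 15.6 in intestine and 1009 ± 99.0 in bladder.

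Serum response factor and its partners were higher in lung than in bladder for 5 of 7 genes and lower for 0, in intestine against bladder for 3 and 0, and in lung against intestine for 4 and 1. Intestine against bladder gave 3 and 2 with quantile normalization, and scaling from genes of low read density gave 3 and 1, whereas lung against intestine was 4 and 0 with the scaling undone. Lung against intestine rested on single libraries, with 0 and 0 without lung replicate 2, 4 and 2 without lung replicate 1, 1 and 1 without intestine replicate 2, and 2 and 1 without intestine replicate 3. Intestine against bladder gave 3 and 1 without intestine replicate 2. Myocd, the muscle co-activator, was at 496 ± 274 in lung, 688 ± 79.1 in intestine and 52.3 ± 22.5 in bladder (intestine minus bladder 3.77, SE 0.35, limma adjusted p = 2.24e-05). Of 16 genes of TGF-beta activation and response, 4 were higher and 7 lower in lung against bladder, 2 and 7 in intestine against bladder, and 7 and 2 in lung against intestine. The first balance turned to 8 and 2 when the scaling was undone, to 7 and 4 after quantile normalization, and to 5 and 4 for equal totals. In intestine against bladder the counts were 4 and 6 with quantile normalization and 5 and 5 with the scaling undone. Scaling from genes of low read density gave 1 and 9 there. Without intestine replicate 2 they were 1 and 6, and without bladder replicate 3 they were 1 and 8. Lung against intestine gave 7 and 4 with quantile normalization, 7 and 6 without lung replicate 1, and 7 and 1 without lung replicate 2, intestine replicate 2 or intestine replicate 3. The latent TGF-beta binding protein gene Ltbp2 was at 5996 ± 81.3 in lung, 520 ± 34.4 in intestine and 1163 ± 42.0 in bladder, the same order as Ccn3 and Ccn5. Its log2 difference for lung minus intestine was 3.53 (SE 0.08, limma adjusted p = 3.29e-08).

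Among 16 other matricellular genes, 1 was higher and 12 lower in lung against bladder, 1 and 13 in intestine against bladder, and 3 and 5 in lung against intestine. With quantile normalization these pairs were 3 and 9, 2 and 9, and 4 and 4. With the scaling undone they were 3 and 8, 2 and 9, and 4 and 4, and equal totals also gave 4 and 4 for the last. Without intestine replicate 3 or bladder replicate 3 the first was 2 and 12. Spp1, which encodes osteopontin, was at 2207 ± 115 in lung, 146 ± 39.0 in intestine and 1481 ± 340 in bladder (lung minus intestine 3.94, SE 0.23, limma adjusted p = 1.85e-06). Fbln1, which encodes the matrix protein fibulin 1, was at 3396 ± 395 in lung and 8696 ± 582 in bladder (-1.36, SE 0.08, limma adjusted p = 3.56e-06), at 1.357 reads per nt.

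For the 6 members whose tissue means spanned at least 1 on the log2 scale, the genes with the most similar values over the 8 libraries were read out among 11678 genes with a mean of at least 100. Pearson correlations are given as a description only, since the libraries of a tissue share their source and depth and the 3 tissues set most of each value. Ccn3 was matched by Tbx4 (r = 0.997) and Serpinb8 (0.995), Ccn4 by Tst (0.997) and Snhg18 (0.991), and Ccn5 by Maml2 (0.994) and Fgf18 (0.992). Thbs2 was matched by Arhgef3 (0.994), Thbs3 by Fgf9 (0.999) and Smpdl3a (0.998), and Thbs4 by Edn2 (0.984) and Lnx1 (0.982). The number of genes with r of at least 0.95 was 110 for Ccn3, 99 for Ccn4, 94 for Ccn5, 208 for Thbs2, 346 for Thbs3 and 26 for Thbs4. Tbx4, a T-box transcription factor gene, averaged 3696 in lung, 45.0 in intestine and 1305 in bladder, the same order as Ccn3. Edn2, an endothelin gene, averaged 2.0 in lung, 373 in intestine and 2.3 in bladder.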

How the data were processed

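Per the labels' protocols, RNA came from the miRNeasy micro kit with DNase, and at most 10 ng went into SMART-Seq v4, which does not mark strand. Per the submitters' processing notes, the tools were featureCounts 2.0.4, DESeq2 1.36.0, STAR 2.7.10a, Trimmomatic 0.39 and Picard 3.0.0, with build mm39. Not given in the sources used here are the annotation, the handling of duplicate reads and what each tool did. The deposited values were treated as a score: read counts that the authors scaled per library and rounded to whole numbers, as read from the spacing of low values. The value of 1 read, estimated from that spacing, was 0.822 to 1.27 and gave reconstructed reads, used for depth and reads per nt. On simulated libraries these were at most 1 read off below 2000 reads. 3 reads, the most that a count of 0 allows, equal 2.47 to 3.81. Such floors cover counting error only.

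Because values were not counts, limma 3.58.1 (R 4.3.3) with a variance trend was fitted on log2(value + 1) to all 8 libraries, with a mean per tissue. It covered the 18097 genes that reached 10 in 2 or more libraries, and 3552 were not tested. Fold changes on this scale understate low genes. Calls are Benjamini-Hochberg adjusted p under 0.05 over all genes tested. Exon lengths came from GENCODE M21 for 96.8% of genes. No GENCODE coordinates were used. Members and lists were chosen with earlier results of these data known. Named genes were all 10 members, the 2 most correlated genes for each member spanning at least 1 log2, and up to 2 genes per list and comparison with the smallest p. Not all are printed, and some items are not reported here. The fit was tested on simulated data.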

Additional observations from a re-analysis of the deposited data

How the results depend on the processing

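Over the 30 comparisons of a member between tissues, 19 kept their direction and their side of the threshold under all 21 alternatives, and 602 of 630 values did. Counts of members kept within 1.5 times, apart from members higher in intestine than in bladder, 1 as reported, 2 with equal totals, 3 with quantile normalization and 3 with the deposited scaling undone.

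Ccn1 turned in lung minus bladder with the scaling undone (0.0781), and in lung minus intestine with equal totals (0.0167), with the scaling undone (0.0798) and with scaling from genes of low read density (0.0191). Ccn2 turned in lung minus bladder with quantile normalization (0.15) and with the scaling undone (0.34), and in intestine minus bladder with both (0.0153 and 0.11). Ccn4 turned in intestine minus bladder with the scaling undone (0.15), and Tnc with quantile normalization (0.26) and with the scaling undone (0.30). Thbs4, which passed in no version of lung minus bladder, turned there with equal totals (0.017), with the scaling undone (0.38), and without lung replicate 1 (0.37), bladder replicate 1 (0.11) or bladder replicate 2 (0.01), and leaving out 1 library gave -0.6174 to 0.37. The cause was not tested, except that undoing the scaling adds 0.51 in lung and 0.40 in intestine relative to bladder by construction. Ccn2 in lung minus bladder passed without bladder replicate 3 (-0.22, limma adjusted p = 0.0435, range over alternatives 0.00121 to 0.812).

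With the replicate number as a block, member counts were 5 higher and 3 lower for lung minus bladder, 1 and 6 for intestine minus bladder, and 5 and 3 for lung minus intestine, equal to those without it. Same-numbered libraries correlated at -0.026 to 0.058 in their deviations from the tissue means, so the numbers were not taken as pairs. With 1 lung library left, that library was assumed to vary like the other tissues. Median differences over all genes moved from 0.06 to 0.15 with equal totals and to -0.15 with quantile normalization for intestine minus bladder, to 0.12 with equal totals for lung minus bladder, and to 0.18 with quantile normalization for lung minus intestine. The alternatives for the F test and for the lists were added after seeing the data. In the F test 8 to 10 members passed over all alternatives.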

Other observations

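Relatives of the members outside the group followed several patterns. Tnxb, which encodes tenascin X of flexible connective tissue, stood at 1445 and 1083 in lung, 1612, 2188 and 2268 in intestine, and 4840, 5678 and 5233 in bladder, the order seen for Thbs2 and Thbs3. Its log2 difference was -2.07 (SE 0.16, limma adjusted p = 1.42e-05) for lung minus bladder and -1.39 (SE 0.15, adjusted p = 4.59e-05) for intestine minus bladder. For lung minus intestine it was -0.68 (SE 0.16, limma adjusted p = 0.00956), a call that was lost without lung replicate 2. Tnn, which encodes tenascin N, stood at 191 and 235 in lung, 21, 30 and 5 in intestine, and 72, 138 and 55 in bladder, and lung was above intestine by 3.73 on the log2 scale (SE 0.67, limma adjusted p = 0.00184). Comp, the remaining pentameric thrombospondin, stood at 41 and 61 in lung, 78, 51 and 76 in intestine, and 23, 15 and 29 in bladder. Its excess in intestine over bladder (1.59, SE 0.36, limma adjusted p = 0.00459) did not pass with quantile normalization (adjusted p 0.00152 to 0.112 over alternatives). Its difference in lung from bladder (1.18, SE 0.40, limma adjusted p = 0.0418) did not pass under 9 of the 21 alternatives (adjusted p 0.00709 to 0.209 over all of them). These were scaling from genes of low read density, voom weights, a fit on those tissues alone, and leaving out lung replicate 2, any 1 intestine library, bladder replicate 1 or bladder replicate 2. Ccn6 did not exceed 8 in any library and was not tested. Of the 5 relatives listed, 4 were in the table.

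The deposited table describes the Ccn1 row as Cyclin-L1, the product of another gene, Ccnl1, which has a row of its own with 1345 and 1495 in lung, 3051, 2900 and 2996 in intestine, and 2991, 3669 and 3382 in bladder. The gene ID and the position on chromosome 3 (145352731 to 145355736) of the Ccn1 row are those of the CCN gene, and they were followed here.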
